A study of Mus musculus with 2 samples.

Results

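Cycling Lewis lung carcinoma (LLC) cells were 349 of the 6630 cell barcodes in this dataset, and all 349 were in the Smad3-WT library. They were selected on their UMI counts (unique molecular identifiers, 1 per captured RNA molecule). A member had more than 2000 UMIs, of which under 10% were mitochondrial, from at least 200 genes. It had at least 5 UMIs summed over Krt8, Krt18, Rhox5 and Wfdc2, with at least 2 of these genes detected, fewer than 3 UMIs of C1qa, C1qb and C1qc, none of Cd79a and Cd3e, and fewer than 2 of Dcn. It also had at least 3 UMIs summed over Mki67, Top2a, Ube2c and Birc5, a total called the cycling sum below. The same gate at a cycling sum of 0 gave 152 cells for comparison, and 62 cells lay between with a sum of 1 or 2.

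LLC is a mouse lung carcinoma line that grows in C57BL/6 hosts. It was inoculated under the skin of mice of C57BL/6 J background, aged 8 to 12 weeks, that were wild-type (Smad3+/+, Smad3-WT) or deficient in Smad3 (Smad3-/-, Smad3-KO). CD11b+Ly6G+ cells were sorted from pooled tumors of each genotype, and 1 library per genotype was made with a 5′ droplet kit. The genotype was that of the host and not of the inoculated tumor cells, and with 1 library per genotype there was no replicate, so no test was made and no p-value is given.

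A dividing cell copies its DNA in S phase, for which it needs licensing proteins, polymerases and nucleotides, and then condenses and separates its chromosomes in mitosis. The Rb and E2F proteins control genes of the first step. The DREAM and MuvB complexes, with B-Myb and FoxM1, control many genes of the second step, often through a CHR element and CCAAT boxes near the start site. Carcinoma cells in a tumor are commonly found both in and out of the cycle.

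The Smad3-WT library held 4116 barcodes with 23951400 UMIs, and the Smad3-KO library held 2514 barcodes with 4214290 UMIs. In Smad3-WT, 1888 cells passed the filters on quality and 563 the carcinoma gate. In Smad3-KO, 530 cells passed the filters on quality and none had 5 UMIs of the carcinoma genes. A count of 0 of 530 cells allows a share of up to 0.566% when 3 cells are taken as the floor, and the upper bound of its exact Clopper-Pearson interval is 0.694%. In Smad3-WT the cycling cells were 18.5% (95% interval 16.8 to 20.3, by the same method) of the 1888 Smad3-WT cells. These intervals, and all below, are at the 95% level and cover counting error only. Depth also differed between the libraries, and a difference in the tumors and a difference in how each library was sorted and made cannot be told apart.

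Some barcode sequences were in both libraries. Of the 349 cycling cells, 38 (10.9%) had a barcode that the Smad3-KO library also held. The same held for 2 of 152 cells at sum 0 and for 73 of all 4116 Smad3-WT barcodes (1.77%). The 38 cells had a median of 43638 UMIs, above the deepest sum-0 cell (34173 UMIs), so these shares were not at a common depth. The Smad3-KO partners of the 38 cells had a median of 490 UMIs, from 437 to 831. Without cells of shared barcodes, 311 cycling cells were left, 59.6% of the gated cells against 62.0% with them.

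The label of the samples is neutrophils, and the genes of both sorted surface proteins were low in the cycling cells. Ly6g, of which the protein was sorted on, had 1 UMI in 349 cells. It was rarely detected in the neutrophil comparison cells too, with 37 UMIs in 26 of 1639 cells (1.59%) of a median of 809 UMIs, so it tells little here. Itgam, which encodes CD11b, was at 5.51 CPM (its UMIs scaled to 1000000 UMIs of the same cells; interval 4.10 to 7.24), against 362 CPM in the neutrophil comparison cells. Those cells had more than 500 UMIs, at least 3 of the genes S100a8, S100a9, Csf3r and Il1rn, and no carcinoma or C1q UMI. The epithelial gene Epcam had 0 UMIs, Krt19 had 2 and Krt7 had 10 UMIs over all 349 cells. Cav1, a caveolin gene outside the rule, was at 237 CPM, against 3.73 CPM in 303 macrophages of the library, which were chosen by at least 5 C1q UMIs and no carcinoma UMI.

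The genes of the rule are given as a description, since they chose the cells. In the cycling cells Krt8, a keratin of simple epithelia, ranged from 0 to 126 UMIs with a median of 6. Rhox5, a homeobox gene, had a median of 8 UMIs and Wfdc2, a secreted protease inhibitor, a median of 7. Krt18, the partner of Krt8, was found in 57.9% of the cells. Mki67, the Ki-67 antigen, had 524 UMIs in all, Top2a, the topoisomerase that untangles sister chromatids, had 1604, Ube2c, a ubiquitin-conjugating enzyme of the anaphase-promoting complex, had 3349, and Birc5, the survivin subunit of the chromosomal passenger complex, had 2801. All 4 of these genes were detected in 170 cells (48.7%), and only 6 cells held a single one of them.

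The cycling sum ran from 3 to 232 UMIs with a median of 17, and its quartiles were 9 and 31. At the threshold, 19 cells had a sum of exactly 3, with a median of 18709 UMIs, and 29 cells just outside it had a sum of 2, with a median of 19304 UMIs. Cycling cells were deeper than the cells at sum 0. They had a median of 24933 UMIs (4192 to 71282) and 4445 genes, against 15804 UMIs (4979 to 34173) and 3345 genes. The share of gated cells in the cycling class was 43.6% (17 of 39, interval 27.8 to 60.4) up to 10000 UMIs, 26.1% (24 of 92) between 10000 and 15000 UMIs, 48.3% up to 20000, 71.7% up to 30000 and 92.1% (117 of 127) above 30000 UMIs. It was thus higher in each deeper bin from 10000 UMIs on, but not from the shallowest bin. The rule counts UMIs, so RNA content and capture cannot be told apart here. In all, 251 of the 349 cells (71.9%) held 20000 UMIs or more, and the 349 cells took 38.6% of the UMIs of the library.

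**Figure D1:**
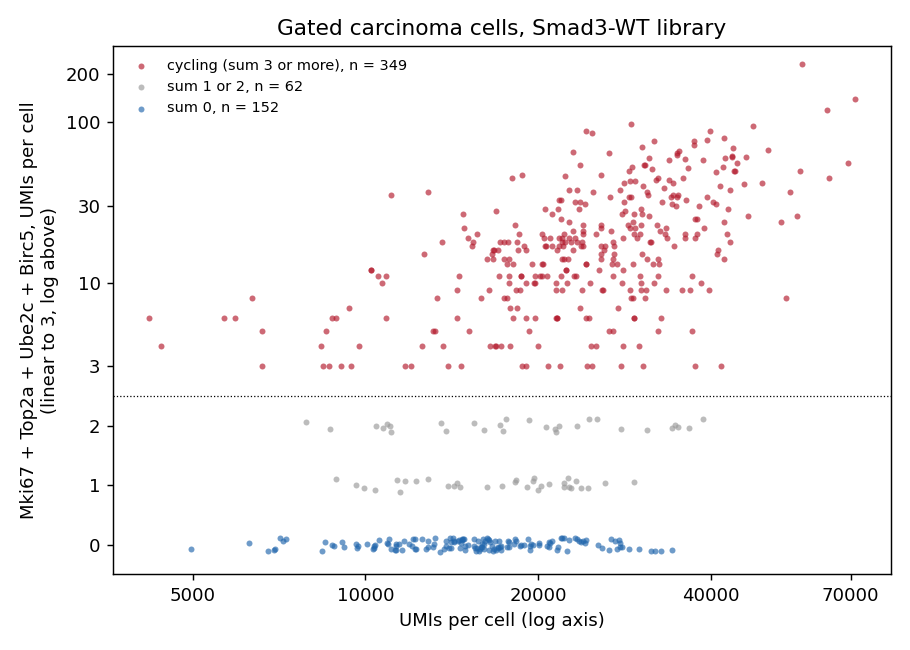
Cycling sum against total UMIs (log axis) for each of the 563 gated carcinoma cells of the Smad3-WT library, 1 point per cell; the y axis is linear up to 3 and logarithmic above, and the dotted line marks the rule. The 349 cycling cells reach 71282 UMIs and the 152 cells at sum 0 reach 34173.

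To compare cells of like depth, each cycling cell was paired with a sum-0 cell within 0.25 log2 units of total UMIs. This gave 147 pairs, with 2859827 UMIs in the cycling cells and 2463564 in the others, and left out 202 cycling cells and 5 cells at sum 0. Medians were 18504 and 15953 UMIs. Within pairs the cycling cell was deeper by a median of 0.23 log2 units, close to the limit of 0.25, so a difference in depth was left. Outside the gate, 7408 genes had at least 50 UMIs over both groups. Their median ratio of CPM, cycling over sum 0, was 1.07, with quartiles of 0.861 and 1.33. At least 2-fold higher in cycling cells were 386 genes (5.21% of those tested), and at most 0.5-fold were 239 genes (3.23%). Since the rule split the cells on genes of the same program, these counts describe the classes and support nothing further.

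The largest differences lay in genes of DNA copying and of mitosis. In 5 lists of the cell cycle, 141 of 155 genes had 50 UMIs, and 115 of the 141 were at least 2-fold higher in cycling cells, none at most 0.5-fold, and the median ratio was 3.97. These 115 genes were 29.8% of the 386 genes that were at least 2-fold higher. The lists were written with earlier results of these cells known.

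Promoters of 4 such genes are shown for the elements named above, because they include an early and a late pair. Each is the 250 bases before the start site in RefSeq, build GRCm38.p6, on the gene's own strand. Capitals mark the CHR letters TTTGAA, the CCAAT box, and the E2F letters TTTCCCGC, TTTGGCGC or TTTGGCG, on either strand; TTTGGCG is contained in TTTGGCGC. Ccnb1, cyclin B1, lies at chr13:100786487-100786736 on the minus strand.
Ccnb1: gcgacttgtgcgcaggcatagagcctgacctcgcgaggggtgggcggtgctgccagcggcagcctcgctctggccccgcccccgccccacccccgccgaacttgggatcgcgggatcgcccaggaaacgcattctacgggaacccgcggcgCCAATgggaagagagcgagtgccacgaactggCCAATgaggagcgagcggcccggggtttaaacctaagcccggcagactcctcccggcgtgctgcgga
Cdc20, the activator of the anaphase-promoting complex, lies at chr4:118437344-118437593 on the minus strand.
Cdc20: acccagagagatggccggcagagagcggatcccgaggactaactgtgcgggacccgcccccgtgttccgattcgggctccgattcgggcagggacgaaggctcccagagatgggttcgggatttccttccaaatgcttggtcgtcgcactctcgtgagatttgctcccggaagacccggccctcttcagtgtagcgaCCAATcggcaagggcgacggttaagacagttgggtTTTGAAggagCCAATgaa
Mcm5, a subunit of the replicative helicase, lies at chr8:75109259-75109508 on the plus strand.
Mcm5: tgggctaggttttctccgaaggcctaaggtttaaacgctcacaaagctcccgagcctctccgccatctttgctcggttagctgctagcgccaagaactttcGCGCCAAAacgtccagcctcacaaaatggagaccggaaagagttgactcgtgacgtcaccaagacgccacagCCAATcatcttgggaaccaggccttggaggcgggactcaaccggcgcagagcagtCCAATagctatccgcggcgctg
Pcna, the sliding clamp of DNA polymerase, lies at chr2:132253181-132253430 on the minus strand.
Pcna: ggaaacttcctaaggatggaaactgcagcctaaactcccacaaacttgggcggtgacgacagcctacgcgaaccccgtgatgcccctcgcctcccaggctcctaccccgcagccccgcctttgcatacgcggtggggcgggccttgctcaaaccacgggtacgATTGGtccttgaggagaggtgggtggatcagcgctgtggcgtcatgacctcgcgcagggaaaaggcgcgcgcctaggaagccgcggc

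Over windows of 300 bases, from 250 before to 50 after the start, the lists differed in these letters. TTTGAA was in 38 of 62 windows (61.3%) of 55 mitosis genes, in 6 of 61 windows (9.84%) of 52 replication and nucleotide genes, and in 17.9% of all 32851 windows. CCAAT was in 75.8%, 57.4% and 37.4% of these windows. TTTCCCGC or TTTGGCGC was in 1 mitosis window (1.61%), in 13 replication windows (21.3%) and in 1.56% of all windows. TTTGGCG alone was in 12 replication windows, and over all windows its 514 shared only 176 with the 514 that held an 8-base form. In the printed stretches, Cdc20 had TTTGAA 12 bases before the start and Ccnb1 had no match to it, while Mcm5 had an E2F match on the reverse strand and Pcna had none. All 4 stretches held CCAAT on 1 of the strands. The table matched 55 of the 68 mitosis genes and 52 of the 59 replication genes. A match is a string of letters and no evidence of binding.

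In the list of mitotic cyclins, kinases and the anaphase-promoting complex, 20 of 24 genes tested were at least 2-fold higher in cycling cells, and their median ratio was 12.1 (6.59 over members with at least 200 UMIs); another 3 of the 27 listed genes had too few UMIs. Ccna2, cyclin A2, had 344 UMIs in 114 of 147 cycling cells and 1 UMI in 1 of 147 sum-0 cells, a ratio of 296 with an interval of 52.8 to 11738. Under 20000 UMIs its ratio was 163 (28.8 to 6471). Ccnb1 had 208 UMIs in 72 cells against 5 UMIs in 5 cells (ratio 35.8, interval 15.1 to 112), and Cdk1, the kinase that both cyclins bind, had 171 against 4 (36.8, 14.1 to 137). Cdc20 had 197 against 10 UMIs (17.0, 9.03 to 35.9). The transcription factor Foxm1 had 71 UMIs against 0, which is at least 20.4-fold higher at a floor of 3 UMIs for the group. Members with the lowest ratios were Fzr1, the other activator of the complex, at 1.34 and Wee1, a kinase that restrains Cdk1, at 1.51 with an interval of 0.847 to 2.76.

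In the list of kinetochore, spindle and cytokinesis genes, 36 of 37 genes tested were at least 2-fold higher and the median ratio was 12.4, which was 7.06 over members with at least 200 UMIs and 6.26 over all cells thinned to 2000 UMIs. Tpx2, which activates Aurora A on the spindle, had 204 UMIs against 2 (87.9, 24.0 to 730). Cenpa, the histone variant of centromeres, had 755 against 29 (22.4, 15.5 to 33.7), and Cdca8, the borealin subunit of the passenger complex, had 321 against 14 (19.8). Tuba1b, an alpha tubulin and the member with most UMIs, was at 1652 against 483 CPM (3.42, 3.21 to 3.64). Arl6ip1, at 1.10 with an interval of 0.777 to 1.56, was the single tested member under 2-fold. Reads of near-identical tubulin and histone genes could have been split among copies, so values of single copies are uncertain.

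Genes of replication licensing and the fork were higher in cycling cells by less: 32 of 36 tested were at least 2-fold higher and the median ratio was 3.04. Clspn, claspin of the fork checkpoint, had 73 UMIs against 3 (21.0, 6.90 to 104). Mcm5 had 134 UMIs in 72 cells against 9 UMIs in 7 cells (12.8, 6.56 to 28.7), whereas Mcm6, of the same helicase, had 226 against 91 (2.14, 1.67 to 2.76). Pcna had 322 UMIs in 107 cells against 142 UMIs in 79 cells, at 1.95 (1.60 to 2.40). Pcna was thus found in 53.7% of the sum-0 cells. Of the 20 nucleotide synthesis genes, 7 were at least 2-fold higher and the median ratio was 1.70. The highest were Rrm2 of ribonucleotide reductase at 16.7 (11.1 to 26.3), the thymidine kinase Tk1 at 6.56 and thymidylate synthase Tyms at 6.23. Rrm2 was at 31.6 (15.1 to 79.4) under 20000 UMIs, and Tyms at 15.2 (4.07 to 128) over all cells thinned to 2000 UMIs. The dUTPase Dut was at 1.73, and the lowest was the purine enzyme Atic at 1.16 with an interval of 0.958 to 1.41.

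Among genes of chromosome condensation and chromatin, 20 of 24 tested were at least 2-fold higher, with a median of 3.96. Hmgb2, a DNA-bending chromatin protein, was detected in all 147 cycling cells and in 65 of the sum-0 cells (13.1, 10.9 to 15.8). Hist1h2ap, a histone H2A gene, had 3529 UMIs against 168 (18.1), and H2afz, the H2A.Z variant, had 5426 against 1063 (4.40). The 15 highest ratios of all genes with at least 200 UMIs were Ccna2, Tpx2, Pclaf, Pimreg, Ccnb1, Hist1h2ao, Cenpa, Cdca8, Hist1h2ap, Cdc20, Rrm2, Spc24, Cenpf, Hmgb2 and Cdca3, from 296 down to 11.6. Of these, Pclaf, a partner of PCNA, had 809 UMIs in 124 cells against 16 UMIs in 9 cells (43.6, 26.7 to 76.6), and was at 25.6 (8.60 to 125) over all cells thinned to 2000 UMIs.

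**Figure D2:**
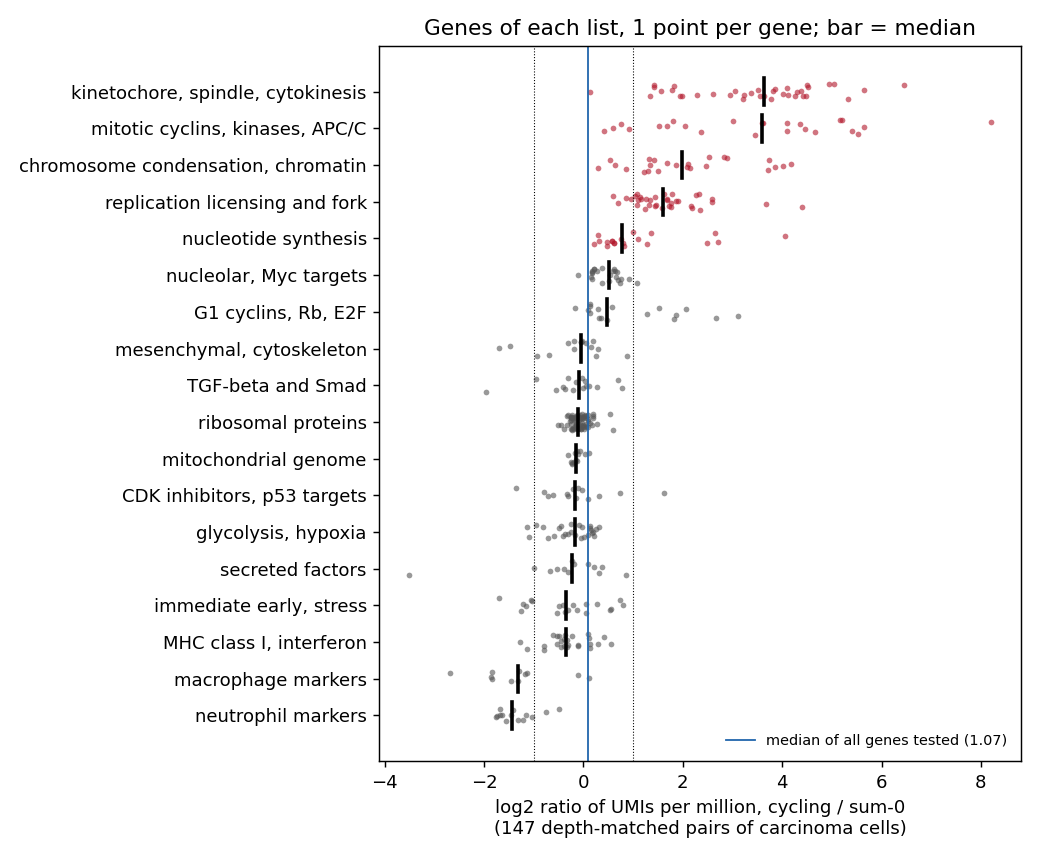
Ratio of CPM, cycling over sum-0 cells, for each gene of 18 lists with at least 50 UMIs (log2 axis, 1 point per gene, genes at 0 in sum-0 cells drawn at their bound); black bars are list medians, the blue line is the median of all genes (1.07), and dotted lines mark 2-fold. The 5 cell cycle lists (red) lie to the right, with medians from 1.70 to 12.4, and the neutrophil and macrophage markers to the left.

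Genes that act before S phase had a lower median ratio than each of the 5 cell cycle lists, a difference that was not tested. Of 17 tested genes of the G1 cyclins, Rb and E2F, 7 were at least 2-fold higher, against 5.21% of all genes tested. Their median ratio was 1.39. The 7 were the E-type cyclins Ccne1 and Ccne2, their kinase Cdk2, the pocket protein Rbl1, and E2f1, E2f7 and E2f8. Ccne2 was at 6.35 (3.02 to 15.4) and E2f7, a repressor of the family, at 8.61 (3.46 to 27.7). Under 20000 UMIs E2f7 was at 19.1 (3.05 to 790). The D-type cyclin Ccnd1 had 420 against 329 UMIs, 147 against 134 CPM (1.10, 0.950 to 1.27; 1.83, 1.22 to 2.82, over all cells thinned to 2000 UMIs), and Myc had 1529 against 1050 (1.25, 1.16 to 1.36). Genes of the nucleolus and of growth, many of them Myc targets, had a median of 1.43. Of these, 1 of 23 was past 2-fold, against 5.21% of all genes tested, namely Ranbp1 of nuclear transport at 2.12. Ribosomal protein genes had a median of 0.928 and the 13 mitochondrial genes one of 0.900, with none of either list past 2-fold in either direction.

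Of 14 tested CDK inhibitors and p53 targets, 1 was at least 2-fold higher and 1 at most 0.5-fold, with a median of 0.884. Over all genes tested these shares were 5.21% and 3.23%, so the counts are not read as a result about the list. Phlda3, a p53 target, was at 3.09 (1.94 to 5.08), and Btg2, an antiproliferative gene, at 0.392 (0.255 to 0.591). Cdkn1b, which encodes p27, had 37 against 49 UMIs (0.650, 0.413 to 1.02), and was at 1.01 (0.605 to 1.68) in 112 pairs within 0.05 log2 units. Under median-of-ratios scaling it was at 0.607 (0.385 to 0.949), and over all cells thinned to 2000 UMIs at 0.311 (0.0779 to 1.14). The median of the list was 1.20 in cells thinned to 2000 UMIs. Cdkn1a, which encodes p21, had 142 against 135 UMIs (0.906, 0.711 to 1.16), but it was at 1070 CPM in the neutrophil comparison cells. When only cells with at most 2 UMIs of S100a8, S100a9, Csf3r and Il1rn were kept, its ratio was 2.10 (1.43 to 3.15) in 108 pairs. Cdkn1c, Cdkn2a and Cdkn2b had 0 UMIs in both groups.

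**Figure D3:**
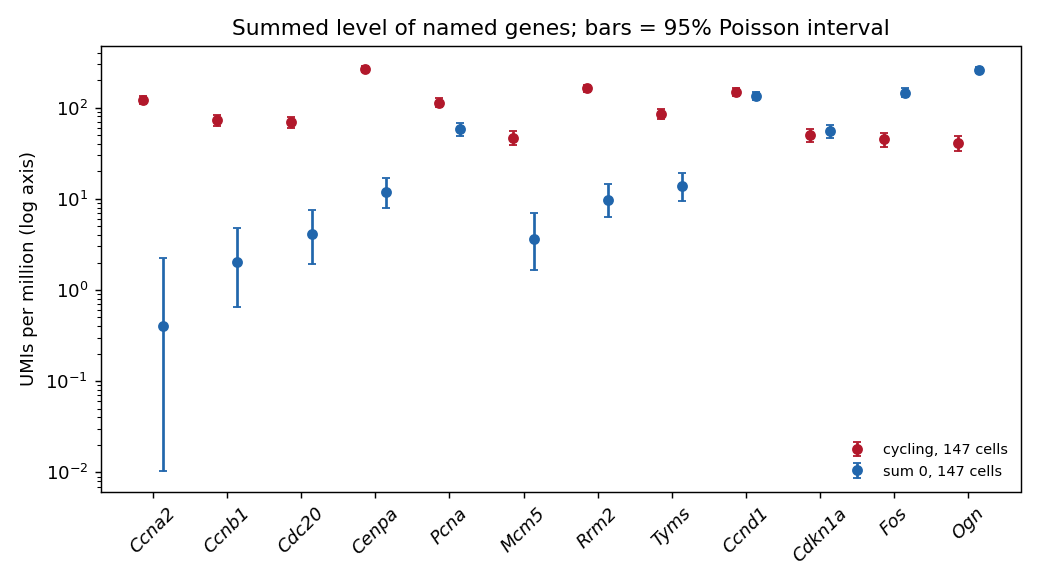
Level in CPM (log axis) of 12 named genes, summed over the 147 cycling cells (red) and the 147 sum-0 cells (blue) of the matched pairs, with 95% Poisson intervals. Cyclins other than Ccnd1, and Cdc20, Cenpa and Rrm2, stand far apart, Ccnd1 and Cdkn1a overlap, and Fos and Ogn are higher at sum 0.

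RNA of other cell types moved with the class and is given before the lower genes. The 15 neutrophil markers summed to 494 CPM (468 to 520) in the matched cycling cells and 1303 CPM (1259 to 1349) in the sum-0 cells, with S100a9 the most abundant at 130 and 357 CPM. All 15 were detected at sum 0 and 14 in cycling cells, where Ly6g was at 0. The 18 macrophage and monocyte markers summed to 359 and 1015 CPM, and Lyz2 stood at 74.8 and 266 CPM. These sums were 7560 CPM for neutrophil markers and 43429 CPM for macrophage markers in the macrophages. Lymphocyte markers had 4 and 18 UMIs in all. The list of fibroblast, endothelial and erythroid markers was at 92.7 and 196 CPM, of which Col3a1, a collagen gene, made up 73.1 and 172 CPM. Dcn, a defining fibroblast gene, was at 0 in both groups, but the gate limited it and its level tells nothing here. The medians per cell were 1 neutrophil UMI in both groups, and single cells reached 119 and 341. The part of this RNA in the differences below was not tested, beyond the values given with few neutrophil UMIs.

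Of the 239 genes at most 0.5-fold in cycling cells, 127 (53.1%) were at least 2-fold higher in the macrophages or neutrophils than in the sum-0 cells, against 21.7% of all genes tested. The 15 lowest ratios among genes with 200 UMIs were Ogn, Lgals7, Sema3a, Sbsn, Cd74, Lilr4b, Lyz2, Hist1h2bc, Il1b, Fos, Thbs1, Hdc, Il1rn, Cd52 and Ccl6, from 0.159 to 0.331. Most of them are genes of myeloid cells, such as Cd74, the invariant chain of MHC class II, which stood at 9572 CPM in the macrophages. With at most 2 neutrophil UMIs per cell, 122 of the 239 genes still had 50 UMIs. Of those 122, 101 were again at most 0.5-fold, against 142 of all 6345 genes tested in those cells. The cells came from the same classes that chose the 239 genes, so a repeat is a description and no check. Macrophage RNA still differed in these cells: of the 5 macrophage and monocyte markers tested there, 3 were at most 0.5-fold with a median of 0.362, and Lyz2 was at 0.282 (0.212 to 0.372).

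Of the 15, Ogn, Sema3a, Lgals7 and Sbsn were at lower CPM in the macrophages and neutrophils than in either carcinoma class. Ogn, osteoglycin, a small proteoglycan, had 117 UMIs in 50 of 147 cycling cells and 635 UMIs in 110 of 147 sum-0 cells. It was at 40.9 against 258 CPM (0.159, 0.129 to 0.194), and at 1.06 CPM in the macrophages and 11.8 CPM in the neutrophils. Sema3a, a secreted guidance cue, had 61 UMIs in 30 cells against 235 UMIs in 83 cells (0.224, 0.166 to 0.297), and was at 1.06 CPM in the macrophages and 1.48 CPM in the neutrophils. Lgals7, galectin-7, had 47 UMIs in 23 cells against 234 UMIs in 47 cells (0.173). Sbsn, suprabasin, had 58 UMIs in 33 cells against 190 UMIs in 47 cells (0.263), and 1 sum-0 cell held 18.9% of the 190. In the macrophages and neutrophils Lgals7 was at 0.532 and 0.984 CPM, and Sbsn at 5.32 and 7.87 CPM. Both are known from stratified epithelia. With few neutrophil UMIs the ratios were 0.170 for Ogn, 0.225 for Sema3a, 0.178 for Lgals7 and 0.195 for Sbsn. Macrophage RNA still differed in those cells, and the part of RNA from other cells in these ratios was not tested. The 4 genes were grouped after their values were seen.

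Genes of the immediate early and stress response had ratios from 0.306 to 1.74. Of 20 tested, none was at least 2-fold higher, 6 were at most 0.5-fold, against 3.23% of all genes tested, and the median was 0.789. The 6 were Fos, Fosb, Egr1, Atf3, Zfp36 and Dusp1, which act in the first response to a stimulus. Fos was at 44.8 against 146 CPM (0.306, 0.248 to 0.376) and at 0.271 (0.199 to 0.364) with few neutrophil UMIs, whereas Zfp36 was then at 0.739 (0.480 to 1.13) and 4 of 17 genes tested were at most 0.5-fold, against 142 of all 6345 genes tested in those cells. Of other early response genes, Jun was at 0.688 and Ier2 at 1.03. Fosl1, another Fos family gene, was higher in cycling cells at 1.74 (1.5 to 2.02), and so was the chaperone Hspa8 at 1.67 (1.60 to 1.75), while Hspa5, a chaperone of the endoplasmic reticulum, was at 0.708.

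Of 20 genes listed for the line and its epithelium, 9 were tested, none was past 2-fold either way, and the median was 0.814. Cav1 was at 277 against 442 CPM (0.627, 0.572 to 0.688) and Igfbp4, a binding protein of insulin-like growth factors, at 972 against 1564 CPM (0.622). Members above 1 were Tagln2, transgelin 2, at 1.43 (1.31 to 1.56), the tropomyosin Tpm2 at 1.23 (1.01 to 1.49) and the galectin Lgals1 at 1.03 (1.01 to 1.05). In the mesenchymal list, 2 of 16 tested genes were at most 0.5-fold, against 3.23% of all genes tested. They were Fn1 at 0.358 and Thbs1 at 0.309, both also higher in the myeloid cells. The median of the list was 0.963 (1.01 with few neutrophil UMIs). In the cells with few neutrophil UMIs, Fn1 was at 0.391 (0.325 to 0.469) and Thbs1 at 0.185 (0.0871 to 0.360). S100a4 was at 0.522 (0.5 to 0.544), and Twist1, a transcription factor of mesenchymal cells, at 1.84 (1.43 to 2.38). Vim, vimentin, was at 0.880.

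Of 13 tested secreted factors, 1 was at most 0.5-fold and the median was 0.857. That gene was Cxcl5, a chemokine that attracts neutrophils, with 8 UMIs against 79 (0.0872, 0.0364 to 0.180). It was detected in 7 cycling and 9 sum-0 cells of the pairs, and 1 sum-0 cell held 86.1% of the 79 UMIs. The ratio thus rests largely on that cell, and the interval does not cover this. Cxcl5 was at 0.0396 (0.00092 to 0.272) over all cells thinned to 2000 UMIs and at 0.0441 (0.0117 to 0.117) with few neutrophil UMIs. Ccl2, which attracts monocytes, had 1564 against 1534 UMIs (0.878, 0.818 to 0.943), and Cxcl1 had 529 against 368 (1.24, 1.08 to 1.42). Csf3, which encodes G-CSF, had 0 UMIs and 1 UMI. In the glycolysis and hypoxia list, 2 of 27 tested genes were at most 0.5-fold, Hk1 at 0.453 and Vegfa at 0.466 (0.256 to 0.823), and the median was 0.883. Vegfa was above 0.5 without pairing (0.571), as a mean over cells (0.535) and under 20000 UMIs (0.616, 0.261 to 1.40). The median of the list was 1.20 in cells thinned to 2000 UMIs and 1.11 under 20000 UMIs, so no direction is given for it. Aldoa was left out there, because its symbol was shared by more than 1 identifier. Among the enzymes with many UMIs, Pgk1 was at 1.24, Pkm at 1.20 and Ldha at 1.01 (0.960 to 1.06), the last at 0.941 under median-of-ratios scaling.

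In the list of TGF-beta and Smad genes, 1 of 16 tested was at most 0.5-fold, Tgfbi at 0.258, and the median was 0.940 (1.06 in pairs within 0.05 log2 units). Smad3 itself was detected in the carcinoma cells, with 38 UMIs against 48 (0.682, 0.434 to 1.07). It was at 0.503 (0.352 to 0.728) over all cells without pairing and at 0.636 (0.404 to 0.994) under median-of-ratios scaling. The ligand gene Tgfb1 had 286 against 204 (1.21, 1.01 to 1.45). Its interval left out 1 without pairing (1.20, 1.04 to 1.40). It held 1 under median-of-ratios scaling (1.13, 0.938 to 1.35) and under 20000 UMIs (1.03, 0.798 to 1.34). MHC class I and interferon genes had a median of 0.783, with 2 of 26 at most 0.5-fold, H2-T23 at 0.414 and Ifit3 at 0.455. B2m, the light chain of class I, was at 747 against 1026 CPM (0.728, 0.687 to 0.771). None of 12 tested genes of apoptosis and survival was past 2-fold, and their median was 0.939 (1.11 in pairs within 0.05 log2 units). With 3.23% of all genes tested at most 0.5-fold, the 1 or 2 such members in the mesenchymal, secreted, glycolysis, TGF-beta and MHC lists are not read as a result about those lists.

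Within the 349 cycling cells the replication and mitosis genes varied widely and with little relation to each other. Per cell, the replication and nucleotide lists together ran from 998 to 10293 CPM with a median of 4467, and the mitotic and kinetochore lists from 1675 to 27409 with a median of 7399. In the 152 sum-0 cells the medians were 1778 and 1524 CPM. The correlation of both totals over the cycling cells was -0.09 (Pearson; Spearman -0.08), and -0.03 after each cell was thinned to 2000 UMIs. This is a description over cells of 1 library that share its depth and total, not a test. Against total UMIs the mitosis total had a correlation of 0.12.

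**Figure D4:**
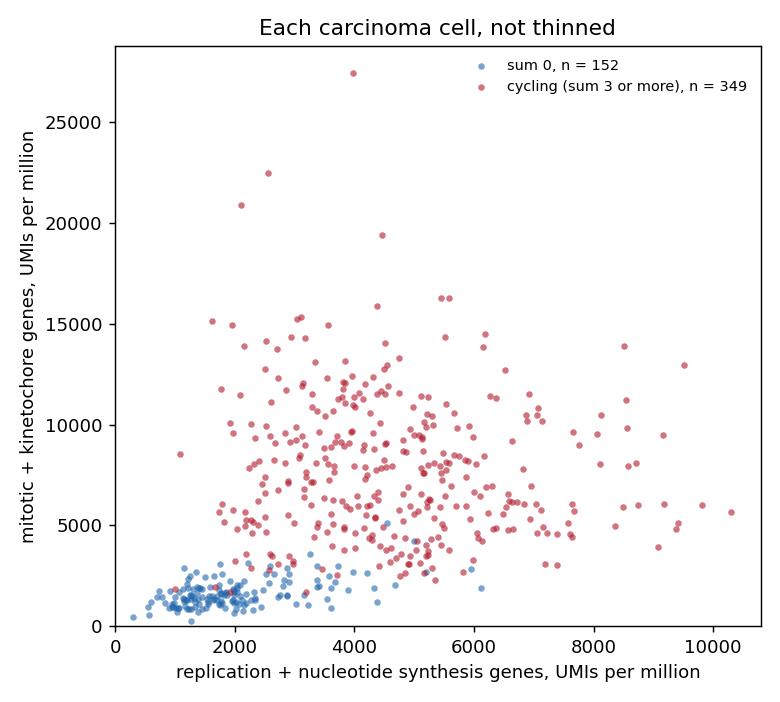
Replication and nucleotide genes (x axis, CPM) against mitotic and kinetochore genes (y axis, CPM) in each cycling cell (red, 349) and each sum-0 cell (blue, 152), as deposited. Sum-0 cells have medians of 1778 and 1524 CPM and cycling cells medians of 4467 and 7399 CPM; the classes overlap, with single sum-0 cells up to 6111 CPM on the x axis and 5102 CPM on the y axis.

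The lists also differed along the cycling sum, which is a description since the sum chose the bins. From 92 cells at a sum of 3 to 9, over 165 cells at 10 to 29, to 92 cells at 30 or more, the kinetochore list was at 3421, 5409 and 7510 CPM and the mitotic list at 1428, 1923 and 3107 CPM. The replication list was at 2200, 2069 and 1445 CPM in the same bins. It was thus highest in the lowest bin of the cycling class, and at 1234 CPM in the 62 cells with a sum of 1 or 2. The nucleotide list did not follow it, at 2646, 2918 and 2752 CPM in the same 3 bins. The neutrophil markers were at 1345 CPM at sum 0, 514 CPM at 3 to 9 and 327 CPM at 30 or more, and median depth was 15804, 19043 and 34151 UMIs.

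**Figure D5:**
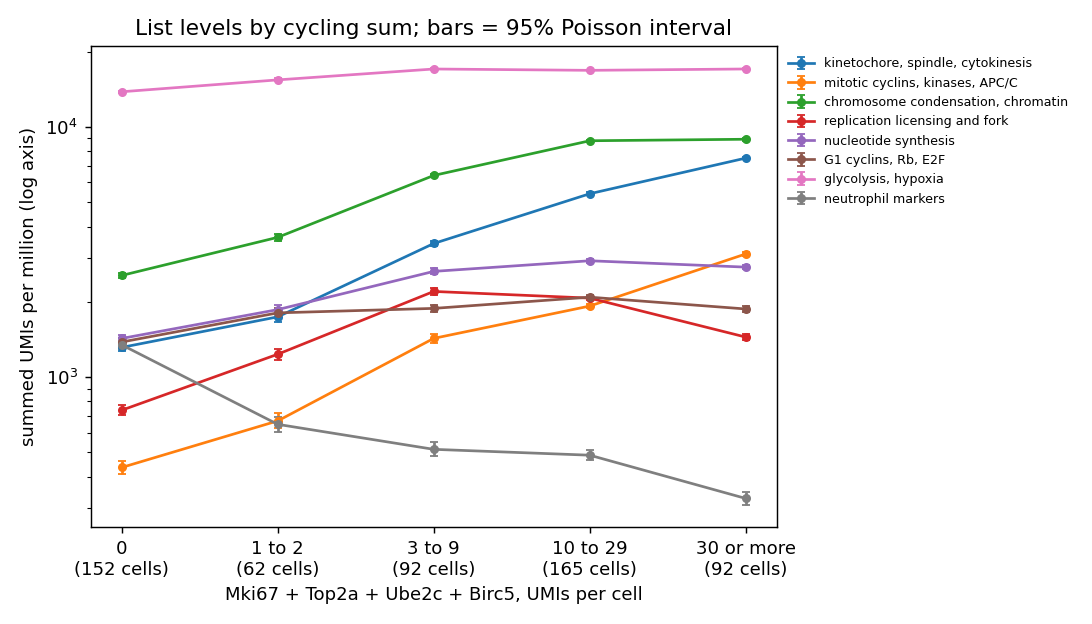
Summed CPM (log axis) of 8 gene lists in carcinoma cells binned by cycling sum, with 95% Poisson intervals; the number of cells stands under each bin. Mitotic and kinetochore genes are highest at 30 or more, replication licensing and fork genes peak at 3 to 9 (2200 CPM), and neutrophil markers are highest at 0 (1345 CPM).

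Detection of single genes depended on depth. Ccnb1 was found in 230 of the 349 cycling cells (65.9%) as deposited and in 58 (16.6%) when each cell was thinned to 2000 UMIs. At that depth it was found in 0 of 152 sum-0 cells, in 2 of 303 macrophages (0.660%) and in 2 of the 208 neutrophil comparison cells (0.962%) that had 2000 UMIs. Rrm2 was found in 24.6% of thinned cycling cells, 1.32% of sum-0 cells, 3.30% of the macrophages and 1.44% of the neutrophils. Pcna was found in 17.8%, 8.55% and 7.69%, with 14.2% of the macrophages, so its share at sum 0 was no higher than in the macrophages. Ccnd1 was found in 27.5% and 22.4% of the carcinoma classes, in 18.5% of the macrophages and in 3.85% of the neutrophils.

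The share of cells at or above the cycling threshold is set beside that of the macrophages as a description only, since the cycling sum is the value that chose the cells. When cells with at least 5000 UMIs were thinned to that number, 221 of 560 carcinoma cells (39.5%, 35.4 to 43.6) and 27 of 187 macrophages (14.4%, 9.74 to 20.3) had a cycling sum of at least 3. As deposited, and so not at a common depth, these shares were 62.0% and 11.2%, at medians of 21574 and 5824 UMIs. At 2000 UMIs they were 15.6% and 4.62%. All these cells came from 1 library, so the difference was not tested, and the intervals cover counting error only.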

How the data were processed

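The authors deposited a matrix of unnormalized UMI counts made with Cell Ranger 3.0.2, per the file headers, on mm10, per the submitters' notes. The authors' averages per library, a signal scaled to the median of 1311 UMIs, were used only to match barcode suffixes to libraries (largest difference 3.58e-08). Their cluster table, with fold changes and p-values, was not used. Members and lists were chosen with earlier results of these data known. Cells were filtered and paired as described (deepest cycling cell first), UMIs were summed, and ratios of CPM were given intervals from the binomial split of each gene's UMIs, using Python 3.11.15, numpy 2.4.6 and scipy 1.17.1. The 71 genes with shared symbols were left out of counts. Genes past 2-fold are described, not tested. Named were the genes of the gate, the extreme or most abundant genes of a list, and the 15 highest and 15 lowest ratios at 200 UMIs; other named list genes were chosen after their values were seen. No doublet caller was run; the C1q, lymphocyte and Dcn limits remove mixed droplets of those cells only. Code was tested on simulated data. Alternatives covered the thresholds, depth, pairing, scaling and neutrophil RNA.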

Additional observations from a re-analysis of the deposited data

Results flagged for a closer look

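The Smad3-KO library gave no carcinoma cell, yet it held 27 UMIs of Krt8, Krt18, Rhox5 and Wfdc2. Of these, 25 UMIs were in the 73 barcodes that the Smad3-WT library also held, and 2 UMIs were in the other 2441 barcodes. The 6 Smad3-KO barcodes with at least 2 such UMIs held 13 in all, and none exceeded 3. The Smad3-KO partners of the 38 cycling cells held 21 of the 25 UMIs, in 14 barcodes, and 31 UMIs of the cycling genes. This drew attention because the signal lay in a library that the comparisons did not use, and its source was not tested.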

How the results depend on the processing

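The cycling class changed with the rule. A sum of at least 2 gave a share of 67.1% and of at least 5 gave 56.0%. Under 20000 UMIs it was 98 cells (39.4%), and 126 cells (40.0%) when cells were thinned to 5000 UMIs before the gate. Not thinned, the carcinoma share against macrophages was 62.0%, and at 2000 UMIs the shares were 15.6% and 4.62%.

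Main counts were 386 higher and 239 lower of 7408 genes tested, with 115 cell cycle genes higher. Without pairing they were 643 and 408 of 9238. Thinned to 2000 UMIs, which also dropped the pairing (349 and 152 cells), they were 223 and 78, with 50 cell cycle genes, and 2441 genes were left to test. At 10 UMIs per gene they were 807 and 707 of 10652 genes, and at 200 UMIs 121 and 57 of 3056, with 50 cell cycle genes. At 1.5-fold they were 1110 and 677. With at most 2 neutrophil UMIs they were 352 and 142 of 6345 genes tested in 108 pairs. In 112 pairs within 0.05 log2 units they were 355 and 156 of 6602. Those tight pairs were an alternative chosen after seeing the data, as was leaving out shared barcodes (404 and 234 of 7375). Median-of-ratios scaling moved all genes by 0.10 (log2) and gave 317 and 309, so the higher share of both was 50.6% in place of 61.8%.

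Medians on the other side of 1 were found for glycolysis (1.20 thinned, 1.11 under 20000 UMIs, 1 with few neutrophil UMIs), CDK inhibitors (1.20 thinned, 1 with few neutrophil UMIs, 1.01 in tight pairs), apoptosis (1.02 under 20000 UMIs, 1.11 in tight pairs), mesenchymal genes (1.01 with few neutrophil UMIs) and TGF-beta genes (1.06 in tight pairs). S100a9 was at 1.04 with few neutrophil UMIs, which removes its UMIs by construction, and H2-K1 at 1.02 in tight pairs; otherwise the cause was not tested. Of 41 genes followed, 35 had an interval that left out 1. Wherever a ratio could be formed, 33 of these stayed on their side of 1. In the 1 random draw of thinned cells used for ratios, Ccna2, Ccnb1, Cdc20, Tpx2, Cenpa and E2f7 had no ratio. In the separate draw used for detection, Cdc20 was found in 4 of 152 sum-0 cells, so thinned values vary with the draw. The other 6 of the 41 (Ccnd1, Cdkn1a, Cdkn1b, Krt7, Smad3, Ldha) were given no direction, with Cdkn1a from 0.766 to 2.10 and Ldha from 0.910 to 1.21. Without pairing the intervals left out 1 for Ccnd1 (1.25), Cdkn1b (0.622), Smad3 (0.503) and Ldha (1.16). Ratios that moved by over 1.5 times on the same side of 1 included Ccna2 (163) and Ccnb1 (22.6), E2f7 (19.1), S100a8 (0.681) and Cxcl5 (0.0501), all under 20000 UMIs. Samples could not be paired because each genotype had 1 library, and the pairs of cells above were matched on depth only.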
